A study of Mus musculus with 76 samples.

Results

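Organic anion and cation transporters of the kidney that carry uremic toxins and drugs were followed across the 5 Kidney arms of the study. They are 9 genes of 54232 in the raw count table, taken by name from a given list: Slc22a6, Slc22a8, Slc22a7, Slc22a2, Slco4c1, Slc47a1, Abcc2, Abcc4 and Slc22a12. RNA was sequenced from heart, kidney and visceral adipose tissue of mice given a partial nephrectomy (PNx) or sham surgery, with or without transplanted cells, and 26 of the 76 libraries were of kidney. All mice were labelled male Fox Chase SCID (CB17/Icr-Prkdcscid/IcrlcoCrl) and were 12 weeks old. This strain lacks working T and B lymphocytes through its Prkdc mutation, while innate immune cells remain. The arms were PNx with Lenti-adipo-NaKtide cells, PNx with Lenti-adipo-scrambled cells, PNx with Control Cells, PNx without cells, and Sham, which had sham surgery and no cells. NaKtide is a peptide that inhibits signalling between the sodium pump and the kinase Src. The identity of the transplanted cells is not given in the sources used here. Each arm had 5 samples, after a second library labelled for Sham 3 was added to its partner. The labels do not say that the samples of an arm came from separate animals, and the p-values here describe no more than the variation among them.

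Clearance of organic ions by the kidney runs through cells of the proximal tubule in 2 steps, uptake from blood across the basolateral membrane and release into urine across the apical membrane. The organic anion transporters Slc22a6 and Slc22a8 exchange anions such as indoxyl sulfate and many drugs for dicarboxylates, whose gradient rests on the sodium pump, and Slc22a2 takes up cations such as creatinine and metformin. Slc47a1 and the ATP-driven pumps Abcc2 and Abcc4 serve the apical exit, whereas Slc22a12 returns urate from urine. Retained uremic toxins are a hallmark of lost kidney function, for which partial nephrectomy is a common model.

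Of the 9 genes, 7 had an entry in the RefSeq table of promoters (GRCm38.p6), with 8 entries in all. The 250 bases before the start of the RefSeq entry were read for 4 of the Slc22a genes, shown because these genes went up and down together between kidneys (described with the libraries further on). That start can differ from the GENCODE M21 start given further on. By GENCODE the Slc22a8 window lies inside the gene, and the windows of Slc22a2 and Abcc2 end past the gene start. Capitals mark ACTTTG, the reverse complement of CAAAGT, a core of the site of the tubule factor HNF4, which was found in the window of Slc22a12 alone among these 4. Slc22a6 was read at chr19:8617746-8617995 on the plus strand, Slc22a8 at chr19:8592932-8593181 on the plus strand, Slc22a12 at chr19:6543071-6543320 on the minus strand and Slc22a2 at chr17:12583939-12584188 on the plus strand.
Slc22a6: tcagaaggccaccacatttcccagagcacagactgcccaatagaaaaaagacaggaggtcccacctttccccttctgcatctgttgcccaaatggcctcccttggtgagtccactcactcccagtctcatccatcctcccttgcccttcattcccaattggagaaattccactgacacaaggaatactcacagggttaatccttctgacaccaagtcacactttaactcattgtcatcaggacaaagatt
Slc22a8: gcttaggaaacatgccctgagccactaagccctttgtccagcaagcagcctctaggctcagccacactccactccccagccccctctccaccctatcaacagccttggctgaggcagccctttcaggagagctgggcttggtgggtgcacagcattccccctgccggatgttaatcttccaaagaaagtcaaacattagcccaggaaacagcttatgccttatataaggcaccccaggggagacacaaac
Slc22a12: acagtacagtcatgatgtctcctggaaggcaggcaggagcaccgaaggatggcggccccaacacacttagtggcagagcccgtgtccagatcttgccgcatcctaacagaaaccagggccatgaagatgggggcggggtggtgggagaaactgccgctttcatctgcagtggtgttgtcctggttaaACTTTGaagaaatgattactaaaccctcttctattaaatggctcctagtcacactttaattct
Slc22a2: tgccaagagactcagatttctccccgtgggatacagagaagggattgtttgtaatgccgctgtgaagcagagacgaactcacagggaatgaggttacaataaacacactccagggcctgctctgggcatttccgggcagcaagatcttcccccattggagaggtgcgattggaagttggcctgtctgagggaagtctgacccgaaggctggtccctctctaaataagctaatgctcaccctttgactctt
CAAAGT was present in Slc22a12 (63 bases before the start, on the opposite strand), Abcc2 (79 bases) and 1 of the entries of Abcc4 (228 bases), and in 12.5% of 32851 mouse promoters read over the same length. The nuclear receptor half-site AGGTCA was present in Abcc2 (49 bases before the start) and in 14.02% of promoters. Both strands were searched for both motifs, the matches in Abcc2 do not overlap, and a match describes the letters only. Slc22a8 and Slc22a6 are neighbours on chromosome 19, with 6204 bases between the end of Slc22a8 and the start of Slc22a6.

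Levels are CPM, counts scaled to a common library total adjusted by TMM, unless FPKM, which also divides by gene length, is named. Kidney libraries held 1241590 to 16912788 counts, with a median of 9245410, and the shallowest was PNx with control cells 5. All 16 markers of the proximal tubule, a list that holds none of the 9 transporters, were above 0 in every kidney sample. The mean log2 CPM of that list was 8.87 to 9.95 in PNx and 10.22 to 10.53 in Sham, lowest in PNx 3 (8.87) and in scrambled cells 5 (9.02). The balance of short against long genes, the mean log2 CPM of the shortest genes minus that of the longest among 3 equal classes of length, also set libraries apart. It was above 0, at 0.06 to 0.27, in PNx 3, 4 and 5 and control cells 4 and 5, and -0.99 to -0.09 in the other 20 samples. All comparisons below rest on 1 edgeR quasi-likelihood fit over the 25 kidney samples, with Benjamini-Hochberg adjustment over 16307 genes and a call at an adjusted p under 0.05.

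In sham-operated kidneys the urate carrier Slc22a12 had the highest level per length, 517 ± 44.7 FPKM (SD, n = 5), followed by Slc22a6 at 341 ± 16.9 FPKM. Slc22a2 (192 ± 9.79 FPKM), Slc47a1 (179.8 ± 12.4) and Slc22a8 (146 ± 16.9) came next, and the sample ranges of Slc22a2 and Slc47a1 overlapped, as did those of Slc47a1 and Slc22a8. Slc22a7 measured 70.1 ± 20.5 FPKM and Abcc2 13.3 ± 1.31 FPKM. Abcc4, at 5.16 ± 0.441 FPKM, and Slco4c1, at 3.32 ± 0.580 FPKM, were the lowest, 156-fold apart from the highest to the lowest of the 9. The other neighbours in this order did not overlap between Sham samples. The counts behind Slco4c1 ran from 9 to 411 per sample and those behind Abcc4 from 13 to 1364, so these genes carry the widest counting error, while Slc22a6 had at least 1228 counts in every sample.

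None of the 9 transporters passed the test in PNx against Sham, in a comparison where edgeR called 16.8% of 16307 genes. Slc22a12 alone was under 0.05 before adjustment (edgeR unadjusted p = 0.0425), as were 42.2% of all genes. DESeq2 called 0 of the 9 genes and 26.6% of all genes. Limma voom with quality weights called 3, Slco4c1 and Slc47a1 lower and Slc22a12 higher, against 44.3% of all genes. The median log2 fold change of the 9 was -0.08, beside 0.05 over all genes tested. In whole tissue, fewer cells of a type and less RNA per cell cannot be told apart.

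Slc22a6 (OAT1; ENSMUSG00000024650, chromosome 19, 8618039 to 8628299 in GENCODE M21 on GRCm38, plus strand), the main basolateral anion exchanger, measured 1403, 1450, 698, 1421 and 1974 CPM in PNx 1 to 5, against 1410, 1499, 1397, 1460 and 1322 CPM in Sham 1 to 5. The PNx samples lay both above and below the narrow Sham range, with PNx 3 far below the others. The means were 1389 ± 454 CPM in PNx and 1418 ± 67.1 CPM in Sham (SD, n = 5 each), and the log2 fold change was -0.03 (SE 0.208, 95% interval -0.46 to 0.40, edgeR adjusted p = 0.931). Slc22a8 (OAT3; ENSMUSG00000063796, chromosome 19, 8591254 to 8611835, plus strand), which takes up bulkier anions such as sulfated steroids, measured 582, 595, 428, 503 and 813 CPM in PNx 1 to 5, against 621, 481, 465, 517 and 539 CPM in Sham 1 to 5. Its groups overlapped, with PNx 5 above and PNx 3 below every Sham sample, and the log2 fold change was 0.16 (SE 0.253, 95% interval -0.37 to 0.68, edgeR adjusted p = 0.655). Slc22a7 (OAT2; ENSMUSG00000067144, chromosome 17, 46432183 to 46438457, minus strand), another anion carrier of this family, measured 96.3, 98.3, 69.0, 186 and 197 CPM in PNx 1 to 5. In Sham 1 to 5 it measured 92.3, 134, 123, 172 and 202 CPM, so Sham itself spread widely and held all PNx samples but PNx 3. Its log2 fold change was -0.16 (SE 0.334, 95% interval -0.85 to 0.53, edgeR adjusted p = 0.728).

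Slc22a2 (OCT2; ENSMUSG00000040966, chromosome 17, 12584132 to 12628488, plus strand), the basolateral cation carrier, measured 396, 418, 219.7, 454 and 494 CPM in PNx 1 to 5, against 413, 448, 409, 431 and 396 CPM in Sham 1 to 5. All PNx samples except PNx 3 lay inside or above the Sham range. The means were 396 ± 106 CPM in PNx and 419 ± 20.3 CPM in Sham (SD, n = 5 each), with a log2 fold change of -0.08 (SE 0.180, 95% interval -0.45 to 0.29, edgeR adjusted p = 0.751). Slco4c1 (OATP4C1; ENSMUSG00000040693, chromosome 1, 96816270 to 96872171, minus strand), known in humans as a carrier of digoxin and thyroid hormone, measured 20.0, 17.4, 4.34, 7.38 and 2.38 CPM in PNx 1 to 5. In Sham 1 to 5 it measured 16.8, 14.6, 17.1, 21.5 and 14.1 CPM. PNx 1 and 2 lay inside the Sham range and PNx 3, 4 and 5 below all of it. The log2 fold change was -0.68 (SE 0.433, 95% interval -1.58 to 0.21, edgeR adjusted p = 0.222), and it was 0.15 without PNx 3, 4 and 5 and control cells 4 and 5. That fit leaves PNx 1 and 2 alone in the PNx arm, the samples inside the Sham range, so a value near 0 follows from the choice.

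Slc47a1 (MATE1; ENSMUSG00000010122, chromosome 11, 61343401 to 61378345, minus strand), the apical exchanger that releases cations for protons, measured 579, 593, 217, 448 and 514 CPM in PNx 1 to 5, against 638, 664, 578, 670.1 and 584 CPM in Sham 1 to 5. The PNx samples lay low, and PNx 1 and 2 alone reached into the Sham range. Its means were 470.0 ± 153 CPM in PNx and 627 ± 43.5 CPM in Sham (SD, n = 5 each), with a log2 fold change of -0.42 (SE 0.211, 95% interval -0.85 to 0.02, edgeR adjusted p = 0.134), against -0.10 without PNx 3, 4 and 5 and control cells 4 and 5. Abcc2 (MRP2; ENSMUSG00000025194, chromosome 19, 43782192 to 43840740, plus strand), an apical pump for conjugates, measured 126, 141, 44.0, 79.7 and 79.6 CPM in PNx 1 to 5, against 132, 122, 102, 119 and 109 CPM in Sham 1 to 5. PNx 3, 4 and 5 were below every Sham sample, and PNx 2 was above. The log2 fold change of Abcc2 was -0.31 (SE 0.269, 95% interval -0.87 to 0.25, edgeR adjusted p = 0.377), and it was 0.19 without the same 5 libraries. For both genes that fit leaves PNx 1 and 2 alone in the PNx arm, the samples highest in that arm.

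Abcc4 (MRP4; ENSMUSG00000032849, chromosome 14, 118482692 to 118706219, minus strand), a pump for cyclic nucleotides, urate and sulfated toxins, measured 62.3, 58.1, 27.7, 24.1 and 37.3 CPM in PNx 1 to 5, against 36.8, 32.9, 38.5, 31.1 and 31.9 CPM in Sham 1 to 5. PNx 1 and 2 were above every Sham sample and PNx 3 and 4 below. The log2 fold change was 0.29 (SE 0.344, 95% interval -0.42 to 1.002, edgeR adjusted p = 0.525). With the balance of short against long genes as a covariate it was 0.94 (edgeR adjusted p = 0.0164), the 1 call among the 9 genes in that fit, which called 3.35% of all genes. Slc22a12 (URAT1; ENSMUSG00000061742, chromosome 19, 6535845 to 6543032, minus strand), the urate carrier, measured 1422, 1527, 975, 2021 and 2540 CPM in PNx 1 to 5, against 1242, 1302, 1208, 1211 and 1031 CPM in Sham 1 to 5. Every PNx sample but PNx 3 lay above all of Sham, with means of 1697 ± 601 CPM in PNx and 1199 ± 101.0 CPM in Sham (SD, n = 5 each). Its log2 fold change was 0.50 (SE 0.234, 95% interval 0.02 to 0.98, edgeR adjusted p = 0.107), and it was 0.29 without PNx 5.

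Leaving out 1 sample at a time changed the sign of the PNx minus Sham log2 fold change for Slc22a6 (-0.21 to 0.12), Slc22a2 (-0.19 to 0.056) and Slc22a8 (-0.011 to 0.23). The range was -0.39 to -0.015 for Slc22a7, -1.06 to -0.45 for Slco4c1 and -0.52 to -0.25 for Slc47a1. It was -0.51 to -0.14 for Abcc2, 0.086 to 0.44 for Abcc4 and 0.29 to 0.63 for Slc22a12. The value nearest 0 came without PNx 3 for Abcc2 and Slc47a1, without PNx 1 for Abcc4 and without PNx 5 for Slco4c1 and Slc22a12.

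**Figure D1:**
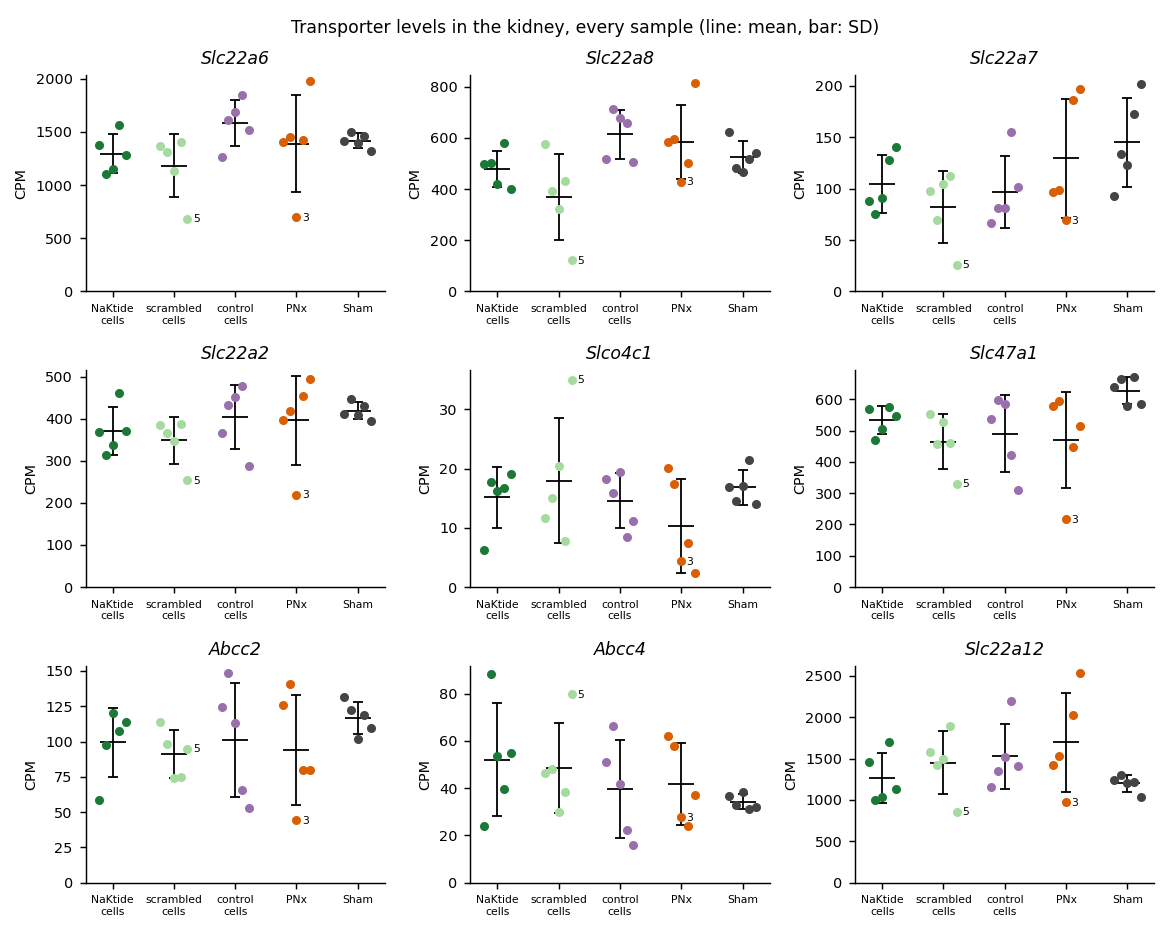
CPM of each transporter in every kidney sample, with arms from left to right as PNx with NaKtide, scrambled or control cells, PNx, and Sham, and a line and bar for the mean and SD (n = 5 per arm). The samples marked 3 (PNx) and 5 (scrambled cells) lie at the bottom of their arms for most of the Slc22a genes, and the Sham samples of most genes lie close together.

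For 8 of the 9 genes, Slc22a7 being the exception, the SD was wider in each of the arms with PNx than in Sham. PNx 3 was the lowest of its arm for 7 of the 9 genes, and PNx 5 the highest for the Slc22a genes. Among kidneys with scrambled cells, sample 5 was the lowest for 6 genes and the highest for Slco4c1 (35.0 CPM) and Abcc4 (79.9 CPM). PNx 3 and scrambled cells 5 also had the lowest proximal tubule markers. Their summed injury markers were the highest of their arms (3166 and 2437 CPM, against 575 to 736 CPM in Sham). Their leukocyte markers (2938 and 1350 CPM) were above Sham (252 to 338 CPM), as were those of every other sample of both arms. PNx 3 was the highest of its arm in leukocyte markers, but scrambled cells 2 (1634 CPM) was above scrambled cells 5. With the proximal tubule score as a covariate, PNx minus Sham was 0.62 for Slc22a6 and 0.43 for Slc22a2 on the log2 scale, against -0.03 and -0.08 without it. PNx and Sham did not overlap in that score, so the adjusted values compare the arms at a score that they do not share. The part of the injury and leukocyte markers was not tested.

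Slco4c1, Abcc2, Abcc4 and Slc47a1 were low in a second set of libraries. Exon sequence is longest in the first 3 of them, at 4908, 8532 and 6389 bases, and Slc47a1 has 3383. Slc22a6 (3983 bases) and Slc22a8 (3910) are longer than Slc47a1, and Slc22a2 (2483), Slc22a12 (2263) and Slc22a7 (2101) are shorter. In control cells 4 and 5, where short genes were also high against long ones, Slco4c1 measured 8.44 and 11.1 CPM, against 15.8 to 19.4 CPM in control cells 1, 2 and 3. In the same pair of libraries Abcc2 measured 65.9 and 53.1 CPM, against 113 to 149 CPM in control cells 1, 2 and 3. Abcc4 measured 22.2 and 16.1 CPM there, against 41.8 to 66.4 CPM in control cells 1, 2 and 3. Slc47a1 measured 421 and 309.9 CPM there, against 537 to 598 CPM in control cells 1, 2 and 3. Slc22a6, though longer than Slc47a1, was not low there, at 1843 and 1516 CPM against 1259 to 1687 CPM in control cells 1, 2 and 3. The part of exon length in these values was not tested. NaKtide cells 1, the sample of its arm with the highest balance of short against long genes (-0.11), was the lowest of that arm for the 3 longest genes, at 6.20 CPM for Slco4c1, 58.5 CPM for Abcc2 and 23.9 CPM for Abcc4. With that balance as a covariate, PNx minus Sham on the log2 scale was -0.10 for Slco4c1 (SE 0.319), 0.19 for Abcc2 (SE 0.149) and 0.94 for Abcc4 (SE 0.216). Scrambled cells 4, at -0.09, had the lowest Slco4c1 of its arm (7.81 CPM). Its Abcc2 (74.6 CPM) lay beside the lowest of the arm, scrambled cells 3 (74.2 CPM). Its Abcc4 (38.4 CPM) was above that of scrambled cells 3 (29.8 CPM).

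**Figure D2:**
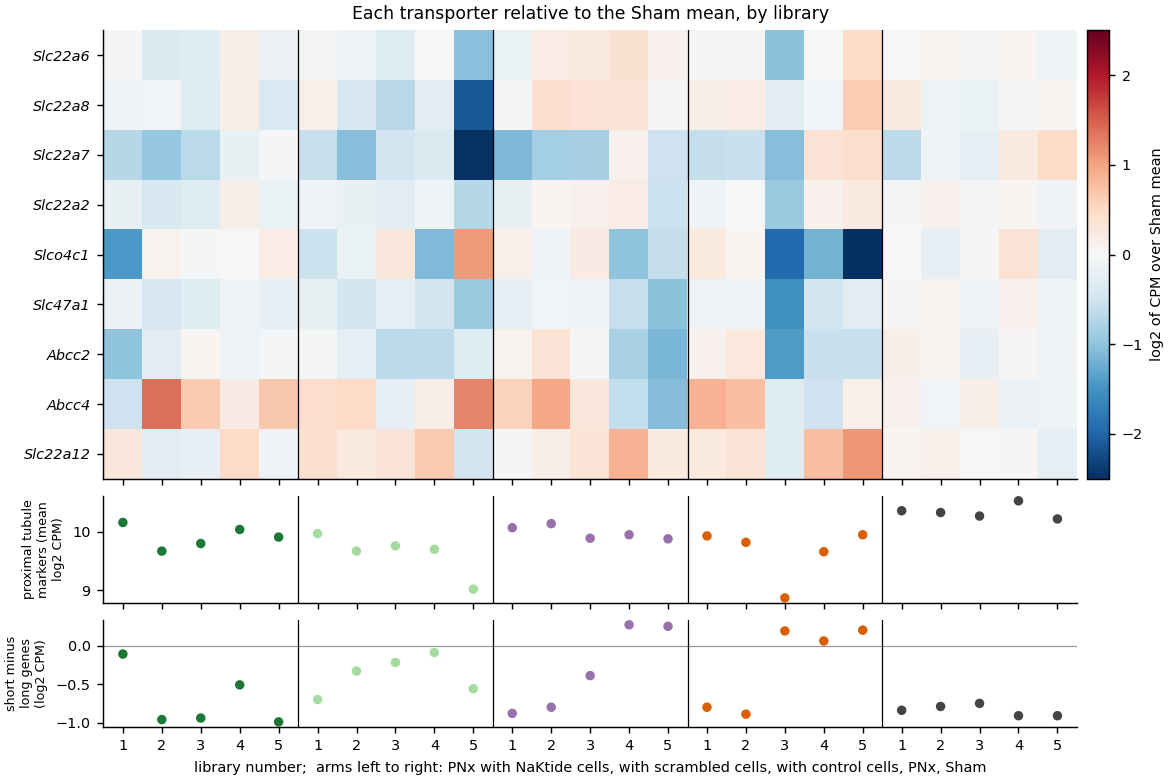
Log2 of each transporter's CPM over the Sham mean for every kidney sample (red higher, blue lower, colours end at 2.5 in either direction), above the mean log2 CPM of 16 proximal tubule markers and the balance of short against long genes in the same samples. PNx 3 and scrambled cells 5 show low Slc22a genes and low proximal tubule markers. Slco4c1 and Abcc2 are low in the 5 samples above 0 in the lowest panel, and also in NaKtide cells 1 and scrambled cells 4, whose points are at -0.11 and -0.09.

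Across the 25 samples, after the mean of each arm was removed, the Slc22a genes went together. As a description, Pearson's r of log2 CPM was 0.90 for Slc22a6 with Slc22a2, 0.90 with Slc22a12, 0.78 with Slc22a8 and 0.74 with Slc22a7. The lowest r between Slc22a genes was 0.61, for Slc22a7 with Slc22a8. The cation carriers Slc22a2 and Slc47a1, which act in series, had an r of 0.81, below the 0.90 of Slc22a2 with Slc22a6 and the 0.83 with Slc22a12. Abcc2 and Abcc4 had an r of 0.79, and Slco4c1 had 0.65 with Abcc2 and 0.62 with Abcc4. Slco4c1 and Slc22a12 went in opposite directions at -0.51, as did Slc22a7 and Abcc4 at -0.50. These points share libraries, and PNx 3 and scrambled cells 5 are among them.

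Over 10823 genes whose log2 CPM averaged 2 or more, the 5 most like Slc22a6 by the same measure were Rbpms2 (r = 0.96), Htra1 (0.94), Cyp2e1 (0.94), Csad (0.93) and Slc26a1 (0.93), the last a sulfate carrier. Those most like Slc22a2 were Ces2d-ps, Dnajb12, Ces2c and Def8 (0.95 each) and Cryzl2 (0.94), and the carboxylesterase pair Ces2c and Ces2d-ps are close copies whose reads could be split. Those most like Abcc4 were Usp54 (0.92), Mon2 (0.91), Cstf2t, Rybp and Fzd4 (0.90 each). No gene stood on more than 1 of the 3 lists. The lists depend on the measure, since 1 or 2 of each 5 genes stayed without centring the arms or by Spearman's rho.

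The comparison of NaKtide with scrambled cells asked what the inhibitor added to the transplanted cells, and edgeR called none of the 9 transporters there, nor any of the 16307 genes (0.0%). No transporter had an unadjusted p under 0.05, as 5.02% of all genes had, and DESeq2 (0.0811% of all genes) and limma voom with quality weights (27.0%) called 0 of the 9. Of the 9, 7 were higher and 2 lower with NaKtide cells, with a median log2 fold change of 0.13 beside 0.01 over all genes, and adjusted p-values of 0.879 to 0.954.

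Slc22a8 had the largest difference, with 497, 500.3, 420.1, 578 and 402 CPM in NaKtide cells 1 to 5, against 575, 391, 324, 433 and 121 CPM in scrambled cells 1 to 5. The samples overlapped, with scrambled cells 5 far below all others. Its log2 fold change was 0.38 (SE 0.253, 95% interval -0.14 to 0.90, edgeR adjusted p = 0.879), and it was 0.15 without scrambled cells 5. Slc22a6 measured 1373, 1102, 1150, 1562 and 1279 CPM in NaKtide cells 1 to 5, against 1370, 1308, 1130, 1408 and 685 CPM in scrambled cells 1 to 5, sample 5 again being the low one. Its log2 fold change was 0.13 (SE 0.209, 95% interval -0.30 to 0.56), and it was -0.01 without scrambled cells 5. Slc22a7 (0.35, SE 0.335, 95% interval -0.34 to 1.04) and Slc22a2 (0.09, SE 0.180, 95% interval -0.28 to 0.46) were also measured higher, with overlapping samples. Mean Slc22a7 was 105 ± 28.2 CPM in the NaKtide arm against 81.9 ± 35.2 CPM in the scrambled arm (SD, n = 5 each). Mean Slc22a2 was 371 ± 56.3 CPM in the NaKtide arm against 349 ± 55.0 CPM in the scrambled arm. Without scrambled cells 5, Slc22a7 was 0.12 and Slc22a2 -0.0034.

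Slc47a1 measured 568.2, 469.9, 506, 576 and 546 CPM in NaKtide cells 1 to 5, against 552, 456, 528, 459 and 329.6 CPM in scrambled cells 1 to 5, with overlap and a log2 fold change of 0.20 (SE 0.211, 95% interval -0.24 to 0.63). Mean Abcc2 was 99.3 ± 24.3 CPM in the NaKtide arm against 91.1 ± 16.8 CPM in the scrambled arm (0.13, SE 0.269, 95% interval -0.43 to 0.68). Mean Abcc4 was 52.0 ± 23.9 CPM in the NaKtide arm against 48.5 ± 19.0 CPM in the scrambled arm (0.10, SE 0.341, 95% interval -0.60 to 0.81). Both lower genes overlapped as well. Mean Slc22a12 was 1265 ± 302 CPM in the NaKtide arm against 1450 ± 378 CPM in the scrambled arm (-0.20, SE 0.234, 95% interval -0.68 to 0.28). Mean Slco4c1 was 15.2 ± 5.14 CPM in the NaKtide arm against 17.99 ± 10.6 CPM in the scrambled arm (-0.24, SE 0.425, 95% interval -1.11 to 0.64). Leaving out 1 sample moved Slc47a1 to 0.097 and Slco4c1 to 0.15 (both without scrambled cells 5), Slc22a12 to -0.080 (without scrambled cells 4), Abcc2 to 0.050 (without NaKtide cells 3) and Abcc4 to -0.17 (without NaKtide cells 2).

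**Figure D3:**
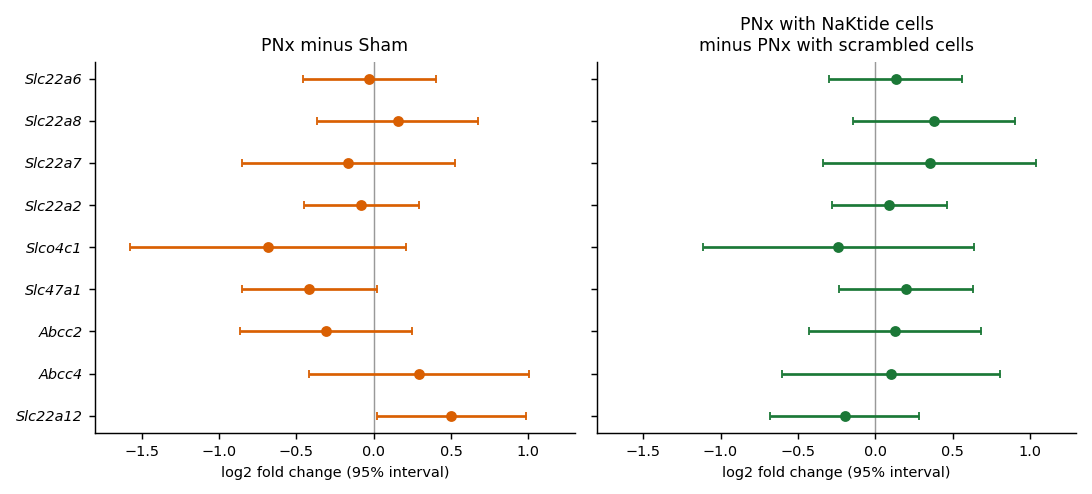
Log2 fold change of each transporter with its 95% interval (edgeR), for PNx minus Sham on the left and PNx with NaKtide cells minus PNx with scrambled cells on the right. The interval of Slc22a12 in PNx minus Sham lies just above 0, at 0.02 to 0.98, and every other interval crosses 0.

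Over all 10 comparisons among the 5 arms edgeR called 0 of 90 tests, and 4 had an unadjusted p under 0.05. The share of all genes under that unadjusted threshold was 42.2% in PNx against Sham, 10.7% in scrambled against control cells, 13.1% in scrambled cells against PNx and 22.2% in scrambled cells against Sham. Besides Slc22a12 in PNx against Sham, 2 of them were of Slc22a8, which was lower with scrambled cells than with control cells (log2 fold change -0.74, SE 0.254, unadjusted p = 0.00779, edgeR adjusted p = 0.332) and than in PNx (-0.66, SE 0.254, unadjusted p = 0.0151, adjusted p = 0.327). Slc22a8 had 517, 714, 679, 656 and 506 CPM in control cells 1 to 5, so that 4 of the 5 scrambled samples lay below all of them. EdgeR called 0.0123% of genes in scrambled against control cells and 0.0% in scrambled cells against PNx. These comparisons share the scrambled samples. Without scrambled cells 5 the difference was -0.51 from control cells and -0.44 from PNx.

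The last was Slc22a7, at 97.8, 69.1, 104, 113 and 26.2 CPM in scrambled cells 1 to 5, beside the Sham values above. Scrambled cells 2 and 5 were below every Sham sample. The log2 fold change against Sham was -0.82 (SE 0.337, edgeR adjusted p = 0.159), in a comparison with 3.61% of genes called. Slc47a1, chosen here after its values were seen, did not overlap between scrambled cells (329.6 to 552 CPM) and Sham (578 to 670.1 CPM), with a log2 fold change of -0.43 (SE 0.211, edgeR adjusted p = 0.228). Its samples with NaKtide cells (469.9 to 576 CPM) lay just below those of Sham, with a log2 fold change of -0.23 (SE 0.211, edgeR adjusted p = 0.937). The share of all genes that likewise did not overlap was not counted. The proximal tubule score was 9.02 to 9.97 with scrambled cells and 9.67 to 10.16 with NaKtide cells, below the Sham range of 10.22 to 10.53. With that score as a covariate, scrambled cells minus Sham was 0.31 for Slc47a1 and -0.09 for Slc22a7, values that compare the arms at a score that they do not share. Against Sham, edgeR called 0.0552% of genes with control cells and 0.0% with NaKtide cells. It called 0.0% in NaKtide cells against control cells, and 0.0% in NaKtide cells and in control cells against PNx, and none of the 9 transporters in any of these comparisons had an unadjusted p under 0.05. Of all genes, 21.6% were under that value in control cells against Sham, 6.22% in NaKtide cells against Sham, 12.9% in NaKtide against control cells, 19.1% in NaKtide cells against PNx and 6.43% in control cells against PNx.

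DESeq2 called 0 of the 9 in all 10 comparisons. Its shares of all genes were 6.82% for control cells, 0.00668% for NaKtide cells and 7.38% for scrambled cells against Sham. Against PNx they were 0.103% for control cells, 0.0% for NaKtide cells and 0.137% for scrambled cells, and against control cells 0.158% for NaKtide cells and 0.481% for scrambled cells. Limma voom with quality weights called more. Against Sham it called 4 of the 9 with scrambled cells (Slc22a2, Slc22a7, Slc22a8 and Slc47a1, all lower; 42.3% of genes) and 3 with NaKtide cells (Slc22a2 and Slc47a1 lower, Abcc4 higher; 19.7%). It called 3 in NaKtide cells against PNx (Abcc4 and Slco4c1 higher, Slc22a12 lower; 41.5%) and 1 in scrambled against control cells (Slc22a8, lower; 9.13%). It called 0 with control cells against Sham (2.27%) and against PNx (12.8%), with scrambled cells against PNx (5.61%) and with NaKtide against control cells (2.40%). In scrambled cells against Sham, edgeR itself called 2 of the 9 under each of 3 alternatives. These were Slc47a1 and Abcc2, both lower, with those arms alone in the fit (29.6% of genes), Slc47a1 and Slc22a7, both lower, without PNx 3, 4 and 5 and control cells 4 and 5 (26.7%), and Slc22a7, lower, and Abcc4, higher, with the balance of short against long genes as a covariate (8.25%).

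Other genes of transport and conjugation, 80 from 8 lists of related function of which 74 were tested, were mixed after PNx: 22 fell and 2 rose, while 7.56% of all genes fell and 9.25% rose. Their median log2 fold change was -0.38, against 0.05 for all genes. The lowest adjusted p was that of Slc22a5 (OCTN2), the carnitine carrier of the same family, which fell to 184 ± 50.5 CPM in PNx, against 349 ± 32.6 CPM in Sham (SD, n = 5 each). Its samples did not overlap (103 to 238 CPM in PNx, 299 to 382 CPM in Sham), and the log2 fold change was -0.92 (SE 0.179, edgeR adjusted p = 0.00698). Of 17 other Slc22 carriers 3 fell, Slc22a5, the prostaglandin carrier Slc22a22 (-0.95, SE 0.251) and Slc22a29 (-0.98, SE 0.262), with a list median of -0.51. Slc22a29 has near-identical copies, so its counts are uncertain.

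Of 6 other Slco carriers tested 3 fell, Slco1a1 (-1.17, SE 0.333), Slco2b1 (-0.60, SE 0.174) and Slco1a6 (-0.53, SE 0.171). Slco1a1, an anion carrier of the apical membrane, averaged 187 ± 98.8 CPM in PNx and 421 ± 92.7 CPM in Sham. Among 8 other ABC pumps the drug pump Abcb1a fell (-0.69, SE 0.176) and Abcc3 (MRP3) rose (2.06, SE 0.633). Abcc3, a basolateral pump for glucuronides, ranged from 1.40 to 28.8 CPM in PNx and from 1.46 to 2.63 CPM in Sham, and its value without PNx 3 was 0.84 (edgeR adjusted p = 0.282). Of 7 urate and apical anion carriers 3 fell, Slc16a9 (-0.93, SE 0.232), the urate carrier Slc2a9 (-0.65, SE 0.178) and Slc17a4 (-1.13, SE 0.338).

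Among 9 genes of dicarboxylate exchange, the sodium pump and the PDZ scaffold, the pump subunit Atp1b1 (-0.91, SE 0.280) and the scaffold Pdzk1 (-0.75, SE 0.241), which anchors apical carriers, fell. Slc13a3, which supplies dicarboxylate for anion exchange, measured -0.03 (edgeR adjusted p = 0.933). Of 10 transcription factors known to act on these transporters 4 fell, Hnf4a (-0.51, SE 0.146), Hnf4g (-1.55, SE 0.453), Ppara (-1.47, SE 0.409) and Nr1h4 (-0.53, SE 0.162). Hnf4a, a main factor of proximal tubule identity, averaged 571 ± 81.4 CPM in PNx and 813 ± 67.3 CPM in Sham.

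Indoxyl sulfate, a substrate of Slc22a6 and Slc22a8, is known as a ligand of the aryl hydrocarbon receptor, and of 4 tested targets of that receptor Nqo1 rose (0.68, SE 0.188, edgeR adjusted p = 0.0272). Nqo1 averaged 93.7 ± 7.08 CPM in PNx and 58.4 ± 6.79 CPM in Sham, without overlap. The other 3 targets were measured lower and did not pass, with a list median of -0.42. They were Cyp1b1 (-0.86, edgeR adjusted p = 0.0534), Tiparp (-0.59, adjusted p = 0.109) and Cyp1a1 (-0.24, adjusted p = 0.568). Whether the rise of Nqo1 came through this receptor was not tested. Of 14 conjugating enzymes 6 fell, led by Ugt8a (-1.54, SE 0.326), Ugt2b5 (-1.41, SE 0.342), Ugt3a2 (-0.95, SE 0.254) and Sult1d1 (-1.06, SE 0.296), with a list median of -0.77. Members of the Ugt2b family are near copies, and their counts are uncertain.

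Many of these calls were lost when 1 library was left out, and the sizes of some of the changes moved. Without PNx 3 the median log2 fold change of the lists was -0.37, and Slc2a9 was -0.68, Abcb1a -0.67, Slco2b1 -0.64 and Nqo1 0.66, near their values above. Others were nearer 0 than above, among them Slco1a1 (-0.92), Slc22a22 (-0.75), Atp1b1 (-0.74), Pdzk1 (-0.56) and Abcc3 (0.84). By the test, without PNx 3, 3 genes fell and 0 rose, Slc22a5, Ugt8a and Ugt2b5, which were also called without each of the other PNx and Sham samples. Of 74 or 75 genes tested, 33 fell without PNx 1, 34 without PNx 2, 4 without PNx 4 and 12 without PNx 5. Without Sham 1 to 5 in turn, 8, 7, 8, 4 and 17 fell. Among the genes named, Slc16a9 lost its call without PNx 3 alone (edgeR adjusted p = 0.0639), while Abcb1a, Slc22a22, Slc22a29, Ugt3a2, Slc2a9, Nqo1, Sult1d1, Ppara, Slco1a1, Hnf4a, Slco2b1, Hnf4g, Slc17a4, Abcc3, Nr1h4, Atp1b1, Pdzk1 and Slco1a6 lost it without PNx 3 (adjusted p = 0.0575 to 0.282) and without at least 3 other samples. Without PNx 3, 4 and 5 and control cells 4 and 5, 1 gene fell, Slc22a5 (0.572% of all genes called), and the median of the lists was -0.23. The PNx arm then held PNx 1 and 2 alone. A fit of PNx and Sham alone called 1, Nqo1, which rose (0.979% of all genes called), with a list median of -0.47. With the proximal tubule score as a covariate 0 were called and the list median was -0.12, but PNx and Sham did not overlap in that score. Beside these lists, 5 of 16 proximal tubule markers fell, while 5 of 13 markers of later segments, 5 of 12 injury markers and 8 of 12 leukocyte markers rose, and the part of the last 3 lists in the changes was not tested. These counts also hung on single samples. With 1 sample left out at a time, 2 to 8 proximal tubule markers and 0 to 6 markers of later segments were called. The ranges were 1 to 5 for injury markers and 0 to 8 for leukocyte markers.

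**Figure D4:**
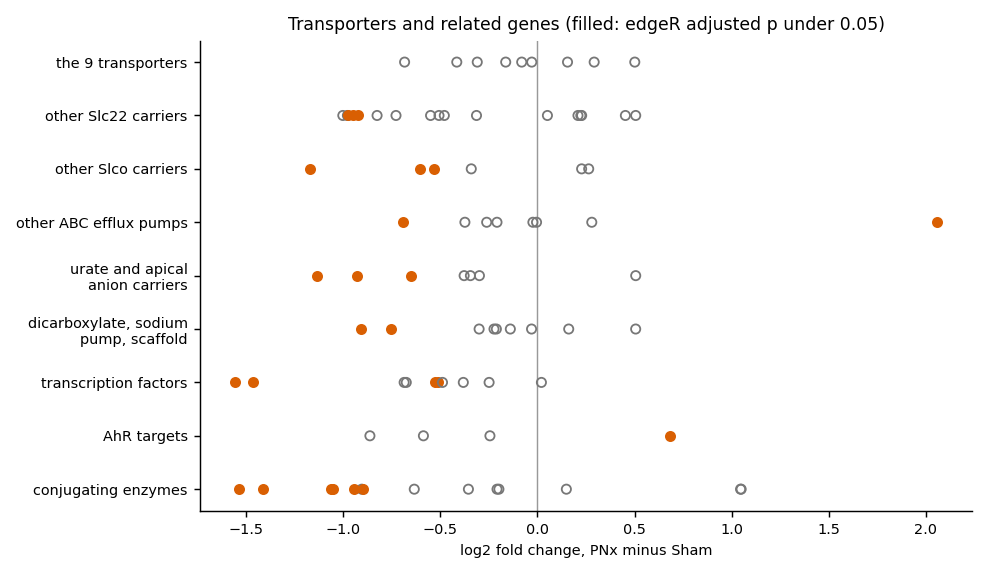
Log2 fold change in PNx minus Sham of the 9 transporters (top row) and of related genes by list (edgeR, filled points for an adjusted p under 0.05). The 9 transporters show no filled point and lie between -0.68 and 0.50, while filled points lie mostly left of 0 in the lists beneath.

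With scrambled cells against Sham, where 3.61% of genes were called, Slc22a5 fell again (-0.85, SE 0.179, edgeR adjusted p = 0.0118), as did Slc2a9 (-0.84, SE 0.178, adjusted p = 0.0130) and Slc17a4 (-1.48, SE 0.341, adjusted p = 0.0183). Hnf4a fell (-0.67, SE 0.147, edgeR adjusted p = 0.0147) and Nqo1 rose (0.94, SE 0.188, adjusted p = 0.00840). This comparison shares the Sham samples with PNx against Sham. Slc22a5, Slc2a9 and Nqo1 passed without each single sample of both arms, Hnf4a lost its call without scrambled cells 5 or Sham 4 (adjusted p = 0.0512 and up), and Slc17a4 without scrambled cells 2 or 5 or Sham 2 or 4 (0.0522 and up). Slc22a17 (-0.73, SE 0.176, edgeR adjusted p = 0.0236) fell as well, but not without scrambled cells 2 or 5 or Sham 1, 2 or 4 (0.0523 and up). The scaffold Slc9a3r1 (-0.55, SE 0.144, edgeR adjusted p = 0.0330) was called too, and lost its call without any of 8 samples, all but scrambled cells 1 and 4. None of the related genes named here is one of the 9 transporters, and the difference between them and the 9 was not tested.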

How the data were processed

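RNA was extracted from frozen tissue with a Qiagen RNeasy Plus Universal kit and read in pairs, per the labels' protocols. The submitters' processing notes list GRCm38, HISAT2 2.1.0, Trimmomatic 0.38 and DESeq2 (1.20.0, 1.20.1) without saying what each did. How reads were counted, by strand or not, is not given, which leaves genes with an overlapping, antisense or near-identical partner uncertain. The deposited raw counts per gene, made by the authors without normalization, were used for all tests. From the values, the deposited normalized signal is the counts over 1 factor per library, and the deposited FPKM is that signal over 1 constant per gene. FPKM served for levels between genes, and exon lengths and coordinates came from GENCODE M21.

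The 25 kidney samples were fitted once with edgeR 4.0.16 in R 4.3.3 (TMM, filtering by arm, quasi-likelihood F test, two-sided, Benjamini-Hochberg over all 16307 genes). Standard errors were derived from the F statistic, and 95% intervals use its degrees of freedom. Alternatives were DESeq2 1.42.0, limma 3.58.1 voom with quality weights, other scaling, filters and samples, covariates and a replicate block. Correlations used log2 CPM with a prior count of 2. On simulated data for PNx against Sham over 16307 genes, the fit recovered 181 of 200 genes changed 4-fold with 11 false calls. Changes of the sizes measured for the 9 transporters there (log2 fold change -0.68 to 0.50) were not simulated, so their recovery is not known. The second library labelled for Sham 3 correlated with its partner at r = 0.978 across 15392 genes, against 0.982 to 0.992 for 14 other Sham pairs, and was added to it. Members and gene lists were chosen with earlier results of these data known. The text names all 9 transporters in the PNx against Sham and the NaKtide against scrambled comparisons and the transporters or up to 2 genes a list that passed in others. It names up to 4 genes of lowest adjusted p that passed in each related list, and 5 genes most like Slc22a6, Slc22a2 and Abcc4. Slc13a3, Slc47a1 against Sham and the transporters under an unadjusted p of 0.05 were named after their values were seen.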

Additional observations from a re-analysis of the deposited data

Results flagged for a closer look

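Slco4c1 in NaKtide cells 1 stood apart from the other 4 samples of its arm, at 6.20 CPM against 16.2 to 19.1 CPM. It was flagged because its gap to the nearest sample was large against the whole range of the arm. The same sample had the lowest Abcc2 and Abcc4 of its arm and a balance of short against long genes of -0.11, against -0.99 to -0.51 in the other 4. Of 45 groups of 5 samples looked at, 1 was flagged, and chance flags about 1 in 20.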

How the results depend on the processing

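EdgeR called 0 of the 9 transporters in all 10 comparisons, and this count was also 0 when each sample of the arms compared was left out in turn (range 0 to 0 in each), with a replicate block (0 in each), in DESeq2, with DESeq2's size factors, without an expression filter, with other treatments of the second Sham 3 library, and with the proximal tubule score as a covariate. Limma voom with quality weights called 3 in PNx vs Sham, 3 in NaKtide cells vs Sham, 4 in scrambled cells vs Sham, 3 in NaKtide cells vs PNx and 1 in scrambled vs control cells. With the balance of short against long genes as a covariate 1 was called in PNx vs Sham and 2 in scrambled cells vs Sham (Abcc4 and Slc22a7). In scrambled cells vs Sham, a fit of those arms alone called 2 (Slc47a1 and Abcc2), and 2 were called (Slc47a1 and Slc22a7) without the 5 samples whose balance was above 0. Replicate numbers did not pair samples (r of deviations -0.62 to 0.72 for 50 same-numbered pairs, -0.71 to 0.73 for 200 others). The log2 fold change of Slc22a12 in PNx vs Sham was 0.48 with the replicate block and 0.50 without. Some signs turned, and the cause was not tested. In PNx vs Sham, voom gave 0.012 for Slc22a2, 0.019 for Slc22a6, 0.13 for Slc22a7 and -0.023 for Abcc4. The proximal tubule score gave 0.43 for Slc22a2, 0.62 for Slc22a6, 0.60 for Slc22a7, 0.25 for Slc47a1 and 0.093 for Abcc2, and the balance 0.19 for Abcc2. Without the 5 samples above 0 in balance, which leaves PNx 1 and 2 alone in the PNx arm, Slc22a6 was 0.0031, Slco4c1 0.15 and Abcc2 0.19. Without the 2 samples lowest in proximal tubule markers (PNx 3 and scrambled cells 5, chosen after seeing the data) Slc22a2 was 0.056 and Slc22a6 0.12. Leaving out 1 sample gave -0.19 to 0.056 for Slc22a2, -0.21 to 0.12 for Slc22a6 and -0.011 to 0.23 for Slc22a8. In NaKtide vs scrambled cells, voom gave -0.0026 for Slc22a2 and 0.081 for Slco4c1, and the proximal tubule score -0.14 for Slc22a2, -0.14 for Slc22a6, -0.095 for Slc47a1 and -0.063 for Abcc2. The balance gave -0.21 for Abcc2 and -0.36 for Abcc4, and Slco4c1 was 0.19 without PNx 3 and scrambled cells 5. Leaving out 1 sample gave -0.0034 to 0.14 for Slc22a2, -0.012 to 0.20 for Slc22a6, -0.43 to 0.15 for Slco4c1 and -0.17 to 0.36 for Abcc4. Slc47a1 in scrambled cells vs Sham was 0.31 with the proximal tubule score. Neither PNx nor scrambled cells overlapped Sham in that score, so values adjusted for it against Sham compare arms at a score that they do not share. Of the 80 related genes in PNx vs Sham, 22 fell and 2 rose with edgeR, 31 and 3 with DESeq2, 40 and 2 with voom, 25 and 2 with the replicate block, 5 and 0 with the balance, and 0 and 1 in a fit of the 2 arms alone. The arm with the highest mean was the same for all 9 transporters in the deposited FPKM and normalized values. Of the 5 genes most like Slc22a6, Slc22a2 and Abcc4, 1, 2 and 1 were shared without centring the arms, and 2, 1 and 1 by Spearman's rho. Depth limits Slco4c1 and Abcc4 in control cells 5, with 9 and 13 as their lowest counts.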

Other observations

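Outside the kidney, on a scale of CPM from the plain library total, 7 of the 9 transporters had medians from 0.0 to 1.02 CPM in heart and fat, and Abcc4 and, in the heart, Slc47a1 were higher. Abcc4 measured 4.25 to 18.5 CPM in all 25 heart samples (median 13.3 CPM). It measured at least 6.35 CPM in all 25 adipose libraries, which include a second library labelled for scrambled cells 3. The lowest kidney value was 10.5 CPM, in control cells 5, where it rests on 13 counts. Sham kidneys measured 31.1 to 38.5 CPM (TMM-adjusted). In the heart Slc22a6 measured 121 CPM in Sham 3 and 35.1 CPM in Sham 2, against at most 4.02 CPM in the other 23 samples (median 1.02 CPM over 25), and Slc22a12 (103 and 36.4 CPM), Slc22a8 (58.5 and 12.0 CPM) and Slc22a2 (30.7 and 10.4 CPM) were also highest in the same pair. Slc47a1 measured 42.1 to 75.9 CPM in all 25 heart samples, below the lowest kidney sample at 195 CPM. In visceral adipose tissue Slco4c1, with a median of 0.0 CPM, measured 163 CPM in Sham 1, 73.3 CPM in Sham 4 and 25.5 CPM in Sham 5, against 14.1 to 21.5 CPM (TMM-adjusted) in Sham kidneys, and Abcc4 was highest in the same 3 libraries, at 117, 65.4 and 29.3 CPM (median 12.4 CPM). Abcc2 (46.4 CPM) and Slc47a1 (26.5 CPM) were highest in the adipose sample of control cells 5.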
